A study of Mus musculus with 2 samples.

Results

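The basement membrane and its receptors were described here through 55 of the 27998 genes counted in single cells sorted from mouse lung. The members were taken by name from the gene list of the files: all collagen IV chains (Col4a), all laminin chains (Lama, Lamb and Lamc), all integrin subunits (Itga and Itgb), and Nid1, Nid2, Hspg2, Agrn, Dag1 and Sparc. The rule itself uses names and no measured value, but it was set with earlier results of these data known. The 55 entries carry 54 symbols, since Itgam stands under 2 gene IDs that overlap on the same strand, and the split of its counts between them is uncertain. The name patterns also took in 4 genes that encode no matrix chain or integrin subunit, namely Col4a3bp, Itgb1bp1, Itgb1bp2 and Itgb3bp.

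The study profiled lung cells of male mice sorted by flow cytometry for EpCAM and against Sca-1, CD24, CD31, CD34 and CD45, which its labels call alveolar type 2 (AT2) cells, the surfactant-making cells of the alveolus. There was 1 library from mice labelled WT and 1 from mice labelled IP-/- (IPKO), that is, as lacking the prostaglandin I2 receptor, and the labels give no injury, treatment, age or number of animals. The labels name no Cre or cell-specific deletion, and the gate removes most other lung cells, so endothelial and mesenchymal cells here are the few that passed it. The comparison asks which matrix chains and receptors AT2 cells carry and how their levels differ with the label. With 1 library per label no test between groups was possible. Intervals (95%) reflect counting error alone, and differences between mice or preparations cannot be told apart from differences between genotypes.

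A basement membrane is a thin sheet of matrix under epithelial and endothelial cells. In the alveolus the sheets of both cell layers fuse in places to form the gas exchange barrier. Laminins are heterotrimers of an alpha, a beta and a gamma chain that form the sheet next to the cell, and collagen IV protomers of 3 alpha chains form a cross-linked network that gives it strength. Nidogens and the heparan sulphate proteoglycans perlecan and agrin link both networks. Cells hold on to laminin through integrins and dystroglycan, and to collagen through another set of integrins.

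Of the barcodes in the files, 6745 labelled WT and 8072 labelled IPKO were kept as cells, with medians of 18057 and 16665 unique molecular identifiers (UMIs, each a counted transcript molecule). The libraries shared 79 barcodes, and 30 kept cells labelled WT and 21 labelled IPKO carried one. AT2 cells were those with Sftpc at 10% or more of their UMIs, 6422 and 7465 cells. The 9 AT2 markers other than Sftpc were all found in them, summing to 81999 and 83098 UMIs per 1000000 UMIs of the class (CPM), the scale of all levels given here. Endothelial markers summed to 13.4 and 18.3 CPM in AT2 cells and to 20546 and 18958 CPM in the 62 and 63 endothelial cells, which had at least 3 of 10 endothelial markers and Sftpc under 10% of UMIs. Ptgir, which encodes the deleted receptor, had 0 UMIs in AT2 cells labelled WT and 314 labelled IPKO. This is the reverse of what the labels would give if the tag lay in the deleted part. Whether it lies there is not known, so these counts cannot settle whether the labels are crossed. Directions are therefore given between labels, and in each pair of values the first is labelled WT and the second labelled IPKO.

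Keratin-high cells, 330 and 392 in number, were the epithelial cells with the highest 5% of keratin share (Krt7, Krt8, Krt18 and Krt19). They are a range and not a cell type: the limit lay at 0.0911% of UMIs, and 63 and 81 of them lay within 10% above it while 76 and 111 other cells lay within 10% below. Most were AT2 cells as well (300 and 351), so this comparison sets a part of the AT2 cells against all of them. Markers of the state between AT2 and alveolar type 1 (AT1) cells summed to 2203 and 2075 CPM in them against 254 and 264 CPM in AT2 cells, with Cldn4, a defining gene, at 2.58 and 1.90 CPM. Club cell markers summed to 19624 and 3747 CPM, against 4276 and 2979 CPM in AT2 cells, with none of 5 at 0. Their part in the results was not tested. Without the 4 and 3 cells that held both Scgb3a2 and Cyp2f2, the same 6 members were higher and the same 1 lower. That step left out few cells and did not use Scgb1a1, at 15595 and 1285 CPM against 1199 and 363 CPM in AT2 cells. It therefore gives no measure of the part of club cell RNA.

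AT2 cells held 25 of the 55 members, where held means 5 CPM or more in both libraries, a level that 29.6% of all features reached. By role these were 5 of 6 collagen IV chains, 6 of 11 laminin chains, 3 of 5 linkers, 5 of 6 laminin receptor genes, 3 of 8 subunits of receptors for RGD and other ligands, and 3 of the 4 other genes. None of the 4 collagen receptor alpha subunits and none of the 11 entries for leukocyte or platelet integrins was held. A further 25 members stood under 1 CPM in AT2 cells of both libraries, and Itga2 had 0 UMIs in both, which allows up to 0.0246 and 0.0229 CPM at a floor of 3 counts. The 3' tag counts molecules whatever the length of the transcript, so levels of different genes are set side by side as molecules caught, with capture that may differ between genes.

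**Figure D1:**
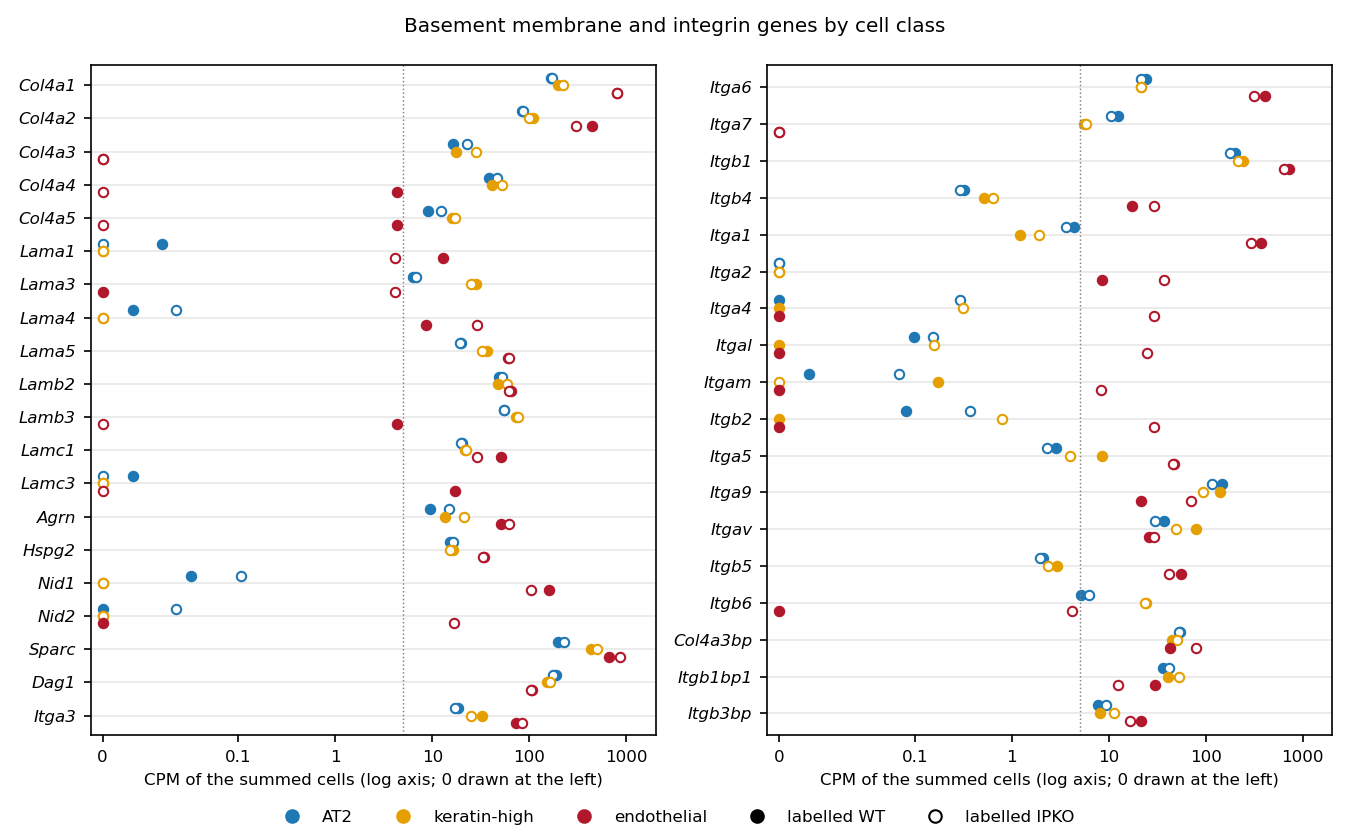
Summed level (CPM, log axis, 0 drawn at the left) of the members with 5 CPM or more in AT2, keratin-high or endothelial cells of either library (1 of the 39 is not shown). Filled points are labelled WT and open points labelled IPKO, and the dotted line is 5 CPM. Col4a1, Itgb1, Sparc, Dag1 and Itga9 stand above 100 CPM in AT2 cells of both libraries, while Nid1 and Itga1 are above 100 CPM in endothelial cells and under 5 CPM in AT2 cells.

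The collagen IV genes lie in head-to-head pairs, each pair read in opposite directions from 1 short region, and the region is shown for the pairs held by AT2 cells on both sides. Col4a1 (chr8:11198423-11312826, minus strand) and Col4a2 (chr8:11312805-11449287, plus strand) overlap at their first bases, and Col4a4 (chr1:82448423-82586849, minus strand) and Col4a3 (chr1:82586921-82722059, plus strand) are parted by 71 bases (GRCm38, GENCODE vM21). The starts of Col4a6 and Col4a5 on chromosome X lie further apart, with 1342 bases between their starts in RefSeq. The sequences are from RefSeq for GRCm38.p6, plus strand, 5′ to 3′, and capitals mark a match to GGGCGG, which binds SP1-like factors.
Col4a1 and Col4a2, the overlap of the first bases, chr8:11312805-11312826: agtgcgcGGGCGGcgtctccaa
Col4a4 and Col4a3, between the starts, chr1:82586850-82586920: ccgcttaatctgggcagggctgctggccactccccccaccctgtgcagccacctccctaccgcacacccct
The G and C content was 72.7% in the first and 69.01% in the second. A search of both strands for GGGCGG and CCAAT, in windows from 250 bases before to 50 after the start, found both motifs in the windows of Col4a1 and Col4a2 and neither in that of Col4a4. GGGCGG was in 35.7% and CCAAT in 37.4% of all 32851 mouse promoter windows of this length. A match is a description of the letters and not a site of binding.

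The pair at chromosome 8 was found in epithelial, endothelial and mesenchymal cells, and the pair at chromosome 1 was found in epithelium and almost not in endothelium. Col4a1, the chain of the common collagen IV network, stood at 167 and 171 CPM in AT2 cells, 198 and 223 CPM in keratin-high cells, and 798 and 795 CPM in endothelial cells. Its partner Col4a2 stood at 84.0 and 86.0 CPM in AT2 cells, 109 and 100 CPM in keratin-high cells, and 442 and 304 CPM in endothelial cells. On the CPM scale both were several-fold higher in endothelial cells in each library, with no overlap between the intervals of the classes. The median log2 ratio of endothelial over AT2 cells was itself 0.93 and 0.83 over all genes tested. Under the other settings tried, the lowest log2 ratios were 1.24 and 1.30 for Col4a1 and 1.38 and 0.90 for Col4a2. The few mesenchymal cells gave 464 and 803 CPM of Col4a1 (37 and 98 UMIs) and 151 and 320 CPM of Col4a2 (12 and 39 UMIs). Immune cells, which should lack these chains, gave 3.55 and 4.02 CPM of Col4a1 and 14.2 and 2.41 CPM of Col4a2 (4 and 3 UMIs).

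Col4a3 and Col4a4, which with Col4a5 form the network known from kidney and lung epithelium and from Alport syndrome, were found in AT2 cells and almost not in endothelial cells. Col4a4 stood at 38.7 and 46.0 CPM in AT2 cells and 41.3 and 52.3 CPM in keratin-high cells. Only 1 UMI (4.29 CPM, interval 0.109 to 23.9) and 0 UMIs of it were found in endothelial cells. The few mesenchymal cells gave 1 and 9 UMIs, which is 12.5 (0.318 to 69.9) and 73.8 (33.7 to 140) CPM. These intervals took in its AT2 level, so Col4a4 was not shown to be lower in mesenchymal cells. Col4a3 stood at 16.2 and 22.7 CPM in AT2 cells and 17.7 and 28.1 CPM in keratin-high cells, with 0 UMIs in endothelial cells of both libraries. At that depth 0 UMIs allow up to 12.9 and 12.5 CPM, so the absence of Col4a3 from endothelial cells is less firmly shown than that of Col4a4.

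Col4a5 was the least abundant of the held collagen IV chains, at 9.07 and 12.4 CPM in AT2 cells, 15.8 and 17.3 CPM in keratin-high cells, and 1 and 0 UMIs in endothelial cells. The 15 and 17 mesenchymal cells held more of it, at 163 and 221 CPM (13 and 27 UMIs). Col4a6 had 8 and 15 UMIs in all AT2 cells and stood under 1 CPM. AT2 cells thus held all chains of both the Col4a1 and Col4a2 network and the Col4a3, Col4a4 and Col4a5 network. In single cells thinned to 10000 UMIs, Col4a1 and Col4a2 were found together in 43.2% and 44.6% of AT2 cells. The 3 chains of the other network were together in 0.515% and 0.840%, and in 2.06% and 3.70% before thinning. Such shares depend on depth and do not give the share of cells that make all chains of a network.

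The 11 laminin genes split into a set held by AT2 cells and a set found in other cells. Lamb3, a beta chain of epithelial laminin, stood at 54.6 and 54.9 CPM in AT2 cells. Lama3, the alpha chain found with it in epithelial anchoring structures, stood at 6.40 and 6.75 CPM. These chains were thus unequal, Lamb3 being higher than Lama3 in both libraries, with intervals that did not overlap. Endothelial cells gave 1 and 0 UMIs of Lamb3, and 0 and 1 of Lama3. There 0 UMIs labelled WT allow up to 12.9 CPM, above the AT2 level of Lama3. Immune cells gave 1 and 13 UMIs of Lamb3 (3.55 and 10.4 CPM).

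The chains of the widespread laminin with Lama5 were closer to each other. Lamb2 stood at 48.5 and 52.3 CPM in AT2 cells, Lamc1 at 20.3 and 19.8 CPM and Lama5 at 19.96 and 19.5 CPM. The levels of Lamc1 and Lama5 overlapped within counting error in each library. Endothelial cells held all 3 as well, Lama5 at 60.1 and 62.4 CPM, Lamb2 at 64.4 and 62.4 CPM, and Lamc1 at 51.5 and 29.1 CPM. All 3 were found in the same cell in 1.47% and 1.67% of AT2 cells thinned to 10000 UMIs. Before thinning the shares were 6.0% and 5.76%, so they depend on depth and do not give the share of cells that make all 3.

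The other laminin chains were rare in AT2 cells and were found in the cells that the gate should remove. Lamb1, the common beta chain, stood at 0.870 and 1.48 CPM in AT2 cells and at 376 and 525 CPM in mesenchymal cells. Lama2, the alpha chain of muscle and mesenchyme, had 0 and 1 UMIs in AT2 cells and stood at 125.4 and 418 CPM in mesenchymal cells. Lama4, known from vessel walls, had 1 and 3 UMIs in AT2 cells, 8.58 and 29.1 CPM in endothelial cells (2 and 7 UMIs), and 213 and 246 CPM in mesenchymal cells. Lamc3 had 1 and 0 UMIs in AT2 cells, 4 and 0 in endothelial cells, and 4 and 18 in mesenchymal cells (50.2 and 148 CPM). Lama1 had 2 and 0 UMIs in AT2 cells and 3 and 1 in endothelial cells. The 15 and 17 mesenchymal cells are few, and those labelled IPKO also had the higher summed level of mesenchymal markers (12431 and 17091 CPM), so no difference between labels is read from them.

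Of the linkers, AT2 cells held perlecan and agrin transcripts and almost no nidogen. Hspg2, which encodes perlecan, stood at 15.4 and 16.2 CPM in AT2 cells and 34.3 and 33.3 CPM in endothelial cells (8 UMIs in each). Mesenchymal cells gave 151 and 197 CPM of Hspg2 (12 and 24 UMIs). Agrn, which encodes agrin, stood at 9.58 and 14.9 CPM in AT2 cells and 51.5 and 62.4 CPM in endothelial cells. Nid1, which ties laminin to collagen IV, had 4 and 14 UMIs in AT2 cells (0.0328 and 0.107 CPM) against 159 and 104 CPM in endothelial and 238 and 320 CPM in mesenchymal cells. Nid2 had 0 and 3 UMIs in AT2 cells and 0 and 4 in endothelial cells.

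Sparc, a matricellular protein that binds collagen IV, was the most abundant member in AT2 cells labelled IPKO and within counting error of Itgb1 labelled WT. It stood at 198 and 227 CPM in AT2 cells, 428 and 495 CPM in keratin-high cells, 661 and 869 CPM in endothelial cells, and 3864 and 6033 CPM in mesenchymal cells. Immune cells had 0 and 6 UMIs. After thinning each cell to 3000 UMIs, 41.5% and 46.2% of AT2 cells held a UMI of Sparc against 0 of 32 and 0 of 163 immune cells, at median depths of 18307 and 17061 UMIs in AT2 and 5812 and 5690 UMIs in immune cells before thinning. The shares before thinning were 88.1% and 89.8% of AT2 cells, so Sparc was spread over most of them.

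Itgb1, the beta subunit shared by the laminin and collagen receptors, was the integrin gene with the highest level in AT2 cells, at 199 and 176 CPM. It was also in every other class, with 725 and 641 CPM in endothelial and 270 and 166 CPM in immune cells. Its laminin-binding alpha partners were lower: Itga6 at 24.2 and 21.4 CPM, Itga3 at 18.4 and 17.1 CPM and Itga7 at 12.4 and 10.5 CPM. Endothelial cells held 412 and 316 CPM of Itga6 and 73.0 and 83.2 CPM of Itga3. Itga7, known as the laminin receptor of muscle, had 0 UMIs in endothelial cells of both libraries and 0 in mesenchymal cells. At that depth 0 UMIs allow up to 12.9 and 12.5 CPM in endothelial and 37.6 and 24.6 CPM in mesenchymal cells. These limits lie above the AT2 level of Itga7, so the counts do not separate the classes.

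Itgb4, the beta subunit of hemidesmosomes, was almost missing from AT2 cells, with 39 and 38 UMIs in all (0.320 and 0.290 CPM). Endothelial cells gave 4 and 7 UMIs (17.2 and 29.1 CPM). Itgb4 pairs with Itga6 only, and after thinning to 10000 UMIs, Itga6 and Itgb4 were found together in 0.0483% and 0.0712% of AT2 cells. Itga3 and Itgb1 were found together in 14.5% and 13.0% of AT2 cells at the same depth. Such shares depend on depth and count transcripts, and receptor protein was not measured. Dag1, which encodes dystroglycan, a laminin and agrin receptor outside the integrin family, was nearly as abundant as Itgb1, at 188 and 174 CPM in AT2, 153 and 162 CPM in keratin-high, and 107 and 104 CPM in endothelial cells. Immune cells gave 17.7 and 20.1 CPM of it.

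Of the collagen-binding alpha subunits, Itga1 and Itga2 stood higher in endothelial than in AT2 cells. Itga1 stood at 4.41 and 3.62 CPM in AT2 cells and 369 and 295 CPM in endothelial cells. Itga2 had 0 UMIs in AT2 and keratin-high cells and 2 and 9 in endothelial cells. Itga10 had 49 and 76 UMIs in AT2 cells and Itga11 28 and 41, both under 1 CPM, and neither had a UMI in endothelial cells, where 0 UMIs allow up to 12.9 and 12.5 CPM. AT2 cells therefore held 5 collagen IV chains beside no collagen-binding alpha subunit at 5 CPM, though Itga1 was held at a limit of 2 CPM. Ddr1, a collagen receptor outside the integrin family, stood at 5.72 and 5.87 CPM.

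The alpha subunit with the highest level in AT2 cells was Itga9, which pairs with Itgb1 and binds tenascin, osteopontin and related ligands, not laminin. It stood at 146 and 116 CPM in AT2 cells (chr9:118606690-118901003) and at 21.5 and 70.7 CPM in endothelial cells (5 and 17 UMIs). Immune cells had 0 and 5 UMIs of it. Thinned to 3000 UMIs, 34.3% and 27.9% of AT2 cells held a UMI of Itga9, against 0% and 1.84% of immune cells. At 10000 UMIs, 59.9% and 50.4% of AT2 cells held both Itga9 and Itgb1.

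Itgav, the alpha subunit of receptors for RGD motifs, stood at 37.0 and 29.8 CPM in AT2 cells. Itgb6, a beta partner in epithelium that with it activates latent TGF-beta, was near the limit at 5.14 and 6.28 CPM. Itgb1, which can pair with Itgav as well, was far higher at 199 and 176 CPM. The partners Itgb5 (2.11 and 1.98 CPM), Itgb3 (0.452 and 0.908 CPM) and Itgb8 (11 and 1 UMIs) were lower than Itgb6 in AT2 cells. Itgb5 stood at 55.8 and 41.6 CPM in endothelial cells, where Itgb6 had 0 and 1 UMIs. There 0 UMIs labelled WT allow up to 12.9 CPM, above the AT2 level of Itgb6. Itga5, the fibronectin receptor subunit, stood at 2.82 and 2.30 CPM in AT2 cells and 47.2 and 45.8 CPM in endothelial cells. Itga8 had 8 and 4 UMIs in AT2 cells and 464 and 467 CPM in mesenchymal cells.

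The leukocyte and platelet integrins were rare in AT2 cells. Itga2b, the platelet subunit, was highest of the 11 entries at 1.00 and 1.13 CPM (122 and 148 UMIs), and the rest stayed under 1 CPM. Itga2b had 0 UMIs in immune and endothelial cells of both libraries, so its level is no measure of those cells in the AT2 class. Itgb2, the shared leukocyte beta subunit, stood at 0.0821 and 0.374 CPM in AT2 cells and 291 and 222 CPM in the 36 and 179 immune cells. Itga4 stood at 0 and 0.290 CPM in AT2 cells and 223 and 247 CPM in immune cells, and Itgal at 0.0985 and 0.153 CPM beside 248 and 239 CPM. In endothelial cells labelled IPKO, Itga4 and Itgb2 had 7 UMIs each, Itgal 6 and Itgam 2, against 0 of all 4 labelled WT. The 8 immune markers summed to 158 CPM there (2 of 8 at 0) and to 4.29 CPM labelled WT (7 of 8 at 0), and their part in these counts was not tested.

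The remaining leukocyte genes were under 5 CPM in AT2, keratin-high and endothelial cells. These were Itgad, Itgae, Itgax, Itgb2l, Itgb7 and the second entry of Itgam. Of them Itgax had 170 and 53.8 CPM and Itgb7 92.2 and 145 CPM in immune cells. With Itga2b, Col4a6, Lama2, Lamb1, Itga10, Itga11, Itga8, Itgb3, Itgb8 and Itgb1bp2 they make up the 16 members below that level in all 3 classes.

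The genes taken in by the name pattern alone have other roles. Col4a3bp encodes the ceramide transfer protein and stood at 53.6 and 53.5 CPM in AT2 cells, 45.1 and 50.6 CPM in keratin-high cells, and 42.9 and 79.0 CPM in endothelial cells. Itgb1bp1, which encodes a cytoplasmic protein that binds the tail of Itgb1, stood at 35.8 and 42.0 CPM in AT2 cells. Itgb3bp, a centromere protein gene also known as Cenpr, stood at 7.67 and 9.45 CPM. Itgb1bp2, a gene of striated muscle, had 1 and 2 UMIs.

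Between the labels, few members in AT2 cells differed by 1.5-fold. Of the 25 held members, 1 was at least 1.5-fold higher labelled IPKO and 0 were that much lower, beside 1.69% and 1.51% of the 8500 genes with a mean of 5 CPM or more. A single member near these shares is not a result about the group. The median log2 ratio (labelled IPKO over labelled WT) was 0.03 over the members and 0.06 over all genes. Of the 25, 12 lay within 1.1-fold. The member past the limit was Agrn (chr4:156165290-156197488), at 9.58 and 14.9 CPM, a log2 ratio of 0.63 (0.53 to 0.74). Scaling by TMM or median-of-ratios size factors left it under 1.5-fold, so the call rests on the scaling.

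**Figure D2:**
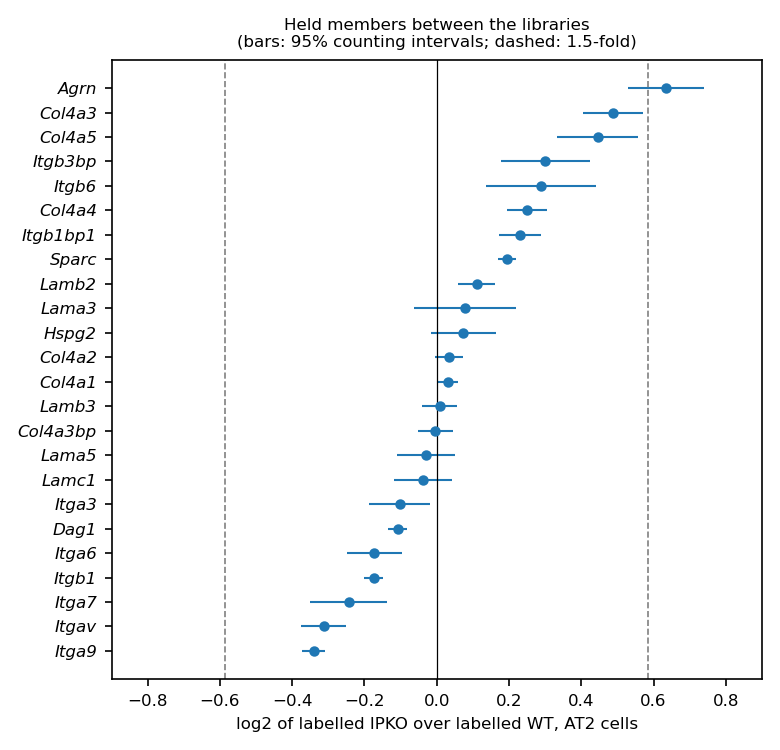
Log2 ratio of labelled IPKO over labelled WT in AT2 cells for the held members (1 of the 25 is not shown), with 95% counting intervals (1 library per label). Dashed lines mark 1.5-fold. Agrn lies past the line at 0.63, Col4a3 and Col4a5 follow at 0.49 and 0.45, and Itga9 is lowest at -0.34.

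None of the 5 held collagen IV chains passed 1.5-fold between the labels. Col4a3, Col4a5 and Col4a4 had log2 ratios of 0.49 (0.41 to 0.57), 0.45 (0.33 to 0.56) and 0.25 (0.19 to 0.30). Col4a1 and Col4a2 both had 0.03, under the median of all genes. The intervals of the 3 chains of the epithelial network thus lay above 0, with counting error alone in view. In keratin-high cells, which overlap the AT2 class, Col4a3 had 0.66 (0.30 to 1.03), Col4a4 0.34 (0.10 to 0.59) and Col4a5 0.13 (-0.29 to 0.54). Col4a1 had 0.17 (0.06 to 0.29) and Col4a2 -0.12 (-0.29 to 0.04) there.

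The 6 laminin chains had a median of 0.0036. Lamb2 was highest at 0.11 (0.06 to 0.16), Lama3 stood at 0.08 (-0.06 to 0.22), Lamb3 at 0.01 and Lamc1 at -0.04 (-0.12 to 0.04). Of these 4, only Lamb2 had an interval that did not take in 0. Sparc had a ratio of 0.19 (0.17 to 0.22) and Hspg2 of 0.07 (-0.02 to 0.16).

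None of the 8 held receptor genes passed 1.5-fold either. Itga9 had a log2 ratio of -0.34 (-0.37 to -0.31), Itgav -0.31 (-0.38 to -0.25), Itga7 -0.24 (-0.35 to -0.14), Itga6 and Itgb1 -0.17 each, Dag1 -0.11 and Itga3 -0.10. Itgb6 had a ratio above 0, at 0.29 (0.14 to 0.44). These are differences between 2 libraries, and the spread between animals is not known.

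In keratin-high cells, Lama3, Lama5, both subunits of the Itgav and Itgb6 receptor and Sparc were higher than in AT2 cells, while no collagen IV chain passed the limit in both libraries. In all, 6 of 25 members were at least 1.5-fold higher in both libraries and 1 was lower, beside 4.21% and 1.61% of the 8590 genes tested. Among the 6 were Lama3, Itgb6, Itgav, Sparc and Lama5, and the lower was Itga7. The median log2 ratio over the members was 0.25 and 0.30, and over all genes 0.10 and 0.09. The share of higher members thus stood above the background, in a comparison whose classes share most of the keratin-high cells. With only keratin-high cells at 10% Sftpc or more against AT2 cells that were not keratin-high, the same 6 and 1 were counted.

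Lama3 stood at 28.0 and 25.1 CPM in keratin-high cells against 6.40 and 6.75 CPM in AT2 cells. The log2 ratios were 2.13 (1.88 to 2.38) and 1.89 (1.64 to 2.14). Lamb3, already the higher of these chains in AT2 cells, stood at 73.8 and 76.1 CPM against 54.6 and 54.9 CPM, ratios of 0.43 and 0.47 that stayed under 1.5-fold. Lama3 remained below Lamb3 in keratin-high cells, with intervals that did not overlap. After thinning to 3000 UMIs, Lama3 was in 8.72% and 7.96% of keratin-high cells against 1.89% and 1.85% of AT2 cells.

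Lama5 stood at 36.7 and 32.3 CPM in keratin-high cells, ratios of 0.88 (0.67 to 1.08) and 0.73 (0.51 to 0.93). Its partners did not follow: Lamb2 had ratios of -0.02 and 0.17, and Lamc1 of 0.08 and 0.17. The 5 collagen IV chains had ratios between 0.09 and 0.80, and none was past 1.5-fold in both libraries. Col4a5 was nearest, at 0.80 and 0.48. Sparc stood at 428 and 495 CPM, ratios of 1.11 (1.05 to 1.17) and 1.13 (1.07 to 1.18), and after thinning to 3000 UMIs was in 66.0% and 70.3% of keratin-high cells.

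**Figure D3:**
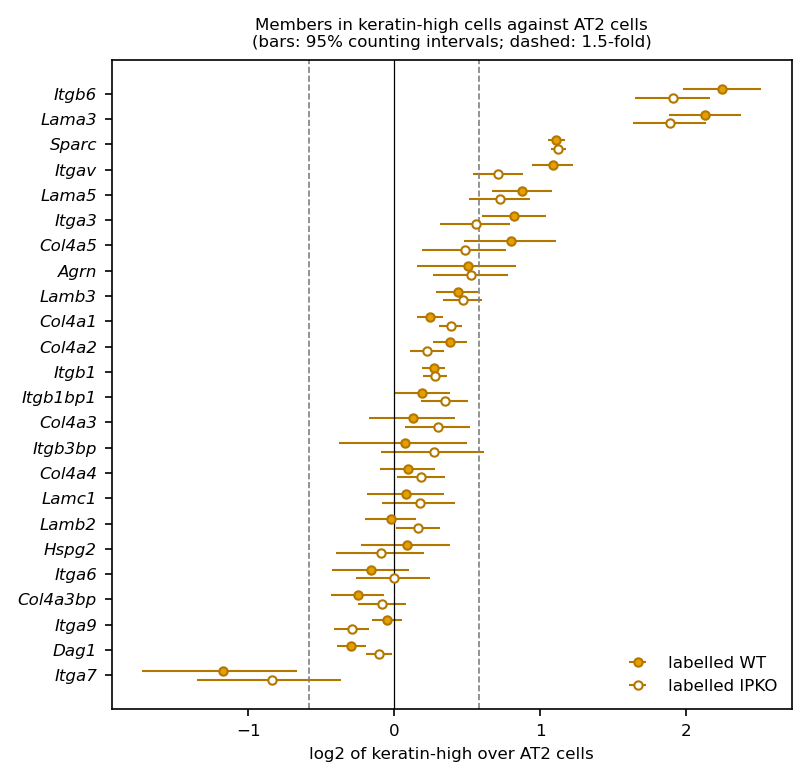
Log2 ratio of keratin-high over AT2 cells for the members tested (1 of the 25 is not shown), labelled WT (filled) and labelled IPKO (open), with 95% counting intervals and dashed lines at 1.5-fold. Itgb6 and Lama3 lie above 1.5 in both libraries, and Itga7 is the only member past the lower line in both.

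Both subunits of the Itgav and Itgb6 receptor were higher in keratin-high cells. Itgb6 (chr2:60598292-60722643) stood at 24.4 and 23.6 CPM against 5.14 and 6.28 CPM, ratios of 2.25 (1.98 to 2.51) and 1.91 (1.65 to 2.17). Itgav (chr2:83724397-83806916) stood at 78.8 and 48.8 CPM against 37.0 and 29.8 CPM, ratios of 1.09 (0.95 to 1.23) and 0.71 (0.54 to 0.88). Under TMM scaling the call of Itgav was lost. Both were found in 7.74% and 7.76% of keratin-high cells at 10000 UMIs, against 1.69% and 1.44% of AT2 cells. Itgav was lower labelled IPKO within keratin-high cells as well, with a log2 ratio of -0.69 (-0.90 to -0.48).

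The laminin receptors divided. Itga7 (chr10:128933818-128958282) stood at 5.51 and 5.87 CPM in keratin-high cells against 12.4 and 10.5 CPM in AT2 cells, ratios of -1.17 (-1.72 to -0.67) and -0.84 (-1.35 to -0.36). Itga3 stood at 32.5 and 25.2 CPM, ratios of 0.82 and 0.56, the second just under the limit. Itga6 had ratios of -0.16 and 0.00, Itgb1 of 0.27 and 0.28, and Dag1 of -0.29 and -0.10. Itga5, under the level needed for this comparison, stood at 8.60 and 3.96 CPM in keratin-high cells against 2.82 and 2.30 CPM, from 50 and 25 UMIs.

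Lama3 was graded along the keratin share below the limit of the keratin-high class as well as above it. Epithelial cells were divided at percentiles 50, 80, 90, 95 and 99 of the keratin share over both libraries, and the highest 1% held 66 and 79 cells. Lama3 stood at 3.40 and 3.89 CPM in the lowest bin, 6.58 and 5.93 CPM in the next, 14.6 and 15.8 CPM between percentiles 90 and 95, and 42.6 and 33.8 CPM in the highest 1%. Intervals of the lowest bin and the next did not overlap in either library. Lama5 stood at 18.8 (17.8 to 19.9) and 17.8 (16.7 to 18.8) CPM in the lowest bin and 23.3 (19.4 to 27.7) and 23.6 (20.1 to 27.6) CPM between percentiles 90 and 95, so labelled WT its bins below percentile 95 overlapped within counting error. It stood at 28.9 CPM in both libraries between percentiles 95 and 99, and at 67.3 and 46.9 CPM in the highest 1%.

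**Figure D4:**
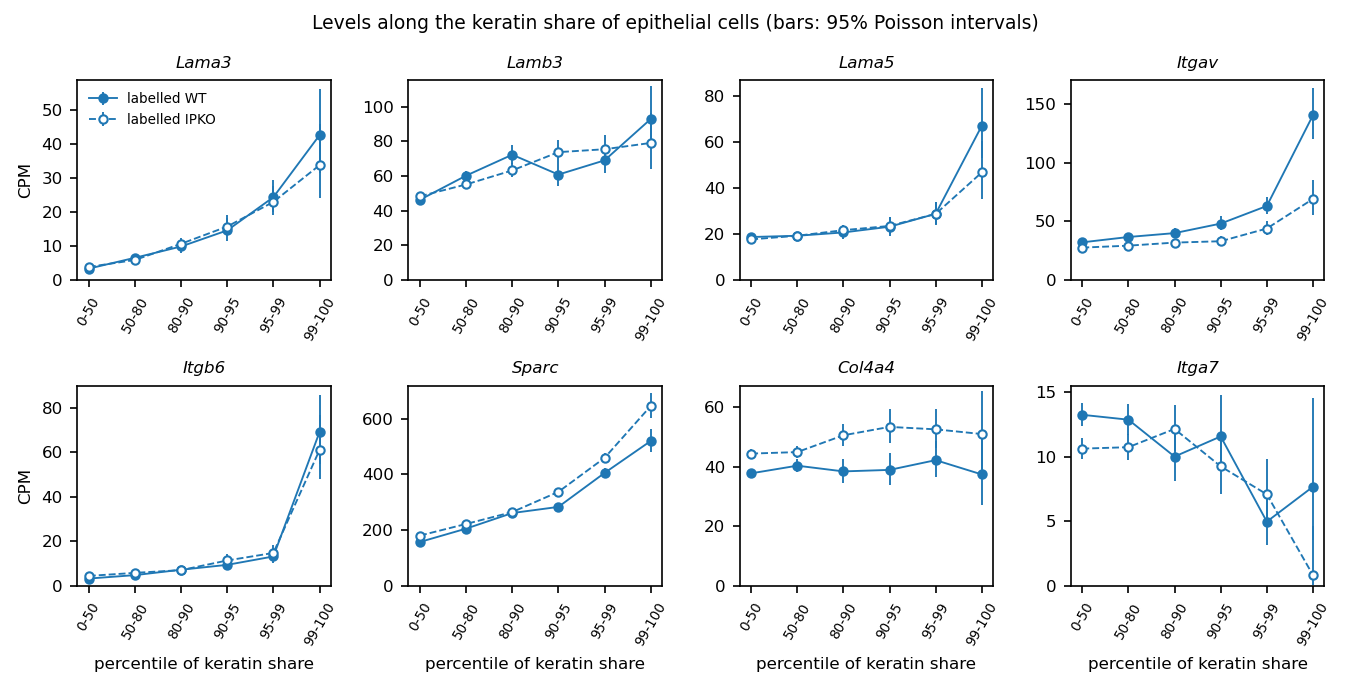
Level (CPM) of 8 members along the keratin share of epithelial cells, in bins of percentiles over both libraries, labelled WT (filled, solid) and labelled IPKO (open, dashed), with 95% Poisson intervals. Lama3, Lama5, Sparc and Itgb6 have their highest point in the last bin, Itgb6 at 68.96 and 60.9 CPM, Col4a4 stays between 37.5 and 53.5 CPM, and Itga7 is lower in the last 2 bins than in the first.

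Itgb6 had most of its difference in the last bin. It stood at 13.2 and 14.7 CPM between percentiles 95 and 99 and at 68.96 and 60.9 CPM in the highest 1%, after 3.24 and 4.42 CPM in the lowest bin. Itgav in the highest 1% stood at 140.5 and 69.2 CPM, with intervals that did not overlap. Sparc stood at 157 and 180 CPM in the lowest bin and 519 and 645 CPM in the highest. Dag1 and Itga9 went down at the upper end, Dag1 from 192 and 176 CPM in the lowest bin to 116 and 140 CPM in the highest, and Itga9 from 140 and 116 CPM to 113 and 64.2 CPM. The median Sftpc share was 20.9% and 20.6% in the lowest bin and 16.9% and 17.8% in the highest, and its part was not tested.

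Matrix and receptor transcripts took up more of the UMIs of endothelial cells than of AT2 cells, and so did most genes. Of 22 members tested, 13 were at least 1.5-fold higher in endothelial cells in both libraries and 4 lower, beside 51.5% and 10.7% of all 5822 genes tested, so the count of higher members is near the background. The median log2 ratio was 1.66 and 1.75 over the members and 0.93 and 0.83 over all genes. The median Sftpc share was 21.1% and 20.8% of UMIs in AT2 cells and 0.523% and 0.686% in endothelial cells. TMM scaling moved the median of all genes to -0.09 and -0.09, left 9 members higher and made 7 lower. Lama5 and Hspg2 then stood under 1.5-fold, while Itga5 (3.05 and 3.39) and Itgb5 (3.71 and 3.47) fell under the level needed to be compared.

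The members furthest above that shift in both libraries were Nid1, Itga1 and Itgb5. Nid1 had log2 ratios of 12.24 (10.76 to 14.19) and 9.93 (8.93 to 10.98), Itga1 of 6.39 (6.04 to 6.72) and 6.35 (5.97 to 6.71), and Itgb5 of 4.72 (3.80 to 5.52) and 4.40 (3.32 to 5.30). Itga6 had 4.09 (3.78 to 4.38) and 3.88 (3.53 to 4.21), and Itga5 4.06 (3.05 to 4.92) and 4.31 (3.29 to 5.17), with overlapping intervals. Agrn, Col4a1, Col4a2, Itga3, Itgb1, Sparc and Lama5 had ratios between 1.59 and 2.43. Hspg2 had 1.16 (-0.06 to 2.14) and 1.04 (-0.18 to 2.02), with intervals that took in 0. The 4 lower members were Lamb3, Col4a4, Itga9 and Dag1. The call of Itga9 was lost with a higher minimum of genes per cell, that of Dag1 with AT2 cells at 15% Sftpc or more, and both at a 2-fold limit. Lamb3 and Col4a4 had ratios of -3.67 (-8.97 to -1.19) and -3.17 (-8.48 to -0.69) labelled WT, from 1 UMI each. Labelled IPKO both had 0 UMIs, and at a floor of 3 counts their ratios were -2.14 and -1.88 or lower.

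Dag1 had ratios of -0.81 (-1.44 to -0.25) and -0.75 (-1.37 to -0.18). Itga9 had ratios of -2.77 (-4.39 to -1.55) and -0.71 (-1.49 to -0.03), from 5 and 17 endothelial UMIs. The depth of the endothelial class, 232988 and 240375 UMIs in all, sets these limits: 1 UMI there is 4.29 and 4.16 CPM. Sftpc in endothelial cells stood at 2.38% and 2.83% of its AT2 level, a guide to the AT2 RNA that these cells may carry. The share may differ between genes and classes. Immune cells gave 3.55 and 10.4 CPM of Lamb3, and whether this was carried RNA or their own was not tested. A count of 1 UMI, as for Col4a4 and Lamb3, cannot be told apart from carried AT2 RNA.

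Few genes that act with the members passed 1.5-fold between the labels, as for all genes tested (1.69% higher and 1.51% lower). Of 16 other basement membrane components 4 were measured in AT2 cells, and 0 were past 1.5-fold in either direction. Egfl6, an EGF-like matrix protein gene, stood at 315 and 372 CPM, above every member, with a log2 ratio of 0.24, and Npnt, which encodes the integrin ligand nephronectin, at 92.6 and 80.7 CPM (-0.20). Smoc2 had 0.07 and Tinagl1 -0.23. Itga8, the known receptor subunit for nephronectin, is the mesenchymal member described above, with 8 and 4 UMIs in AT2 cells.

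Of 14 genes for collagen and laminin processing 9 were measured, with 1 higher labelled IPKO and 0 lower. This was Serpinh1, the collagen chaperone HSP47, at 46.1 and 78.1 CPM (0.76). Crtap followed at 0.15, and P4hb and Plod1 were lowest at -0.27 and -0.19. Of 14 hemidesmosome and non-integrin receptor genes 13 were measured, with 0 higher and 1 lower: Dst, which encodes the cytoskeletal linker dystonin, stood at 119 and 76.98 CPM (-0.63). Utrn was next at -0.19, and Cd151 and Sgcb were highest at 0.10 each. Of 20 integrin adaptors 17 were measured and of 14 other integrin ligands 5, with 0 past 1.5-fold in either list. Rap1a (0.33) and Vcl (0.15) were highest and Actn1 (-0.31) and Actn4 (-0.24) lowest of the adaptors, and Ltbp3 (0.25) and Tgfb1 (-0.06) highest and Icam1 (-0.29) and Thbs1 (-0.06) lowest of the ligands.

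In keratin-high cells the same lists gave 3 of 17 adaptors higher in both libraries (Src, Zyx and Vcl), 4 of 13 hemidesmosome and non-integrin receptor genes (Cd44, Cd151, Plec and Ddr1) and 1 of 5 ligands (Thbs1), and 0 lower, beside 4.21% higher and 1.61% lower of all genes tested. Among them Thbs1, which encodes thrombospondin, an activator of latent TGF-beta, had ratios of 2.59 and 2.75, and Zyx, which encodes zyxin of focal adhesions, 1.59 and 1.31. Vcl, which encodes vinculin, had 0.95 and 0.88. Cd151, the tetraspanin partner of laminin-binding integrins, had 0.88 and 0.71, and Plec, which encodes the hemidesmosome linker plectin, 0.96 and 1.23. None of the 9 processing genes and none of the 4 other basement membrane components was past 1.5-fold in both libraries.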

How the data were processed

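Single-cell RNA was measured in 2 libraries made with the 10x Chromium Single Cell 3' kit, per the labels' protocols. The authors deposited whole UMI counts for every gene in every called barcode. Cell Ranger 4.0.0 produced them, per the file headers, with GRCm38 (mm10) as the build, per the submitters' processing notes. No annotation release is named in the sources. The files held 8924 barcodes with 127287281 UMIs labelled WT and 10014 with 137471506 UMIs labelled IPKO.

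Barcodes with at least 500 genes and at most 20% mitochondrial UMIs were kept. AT2 cells had Sftpc at 10% or more of UMIs. Endothelial, immune, mesenchymal and ciliated cells had less and at least 3 markers with a UMI, more than of any other of these types. Keratin-high cells had the highest 5% of keratin share among cells outside these gates. Doublets were not called, and leaving out the highest 5% of total UMIs was tried instead. Counts were summed per class and library and given as CPM, with exact Poisson intervals for levels, conditional binomial intervals for ratios and Clopper-Pearson intervals for shares. Counts of 0 were set at a floor of 3 counts per library and class. Genes averaging 5 CPM or more (20 CPM with endothelial cells) were compared, and called at 1.5-fold, in both libraries where classes were compared. No model was fitted, since each label had 1 library. edgeR 4.0.16 gave the TMM factors of an alternative only, and Python 3.11.15 with numpy 2.4.6 and scipy 1.17.1 the rest. On simulated data for 8410 genes labelled IPKO over labelled WT, 200 of 200 genes changed 2-fold were recovered and 95.3% of intervals held the true ratio. The simulated counts had Poisson error alone, which the intervals assume. This checks the calculation only, and says nothing of spread between cells, mice or preparations.

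The members, related gene lists and markers were chosen with earlier results of these data known. All 55 members were found in GENCODE vM21 by gene ID, and 36 of 54 symbols had a RefSeq promoter entry. Members at 5 CPM or more in any main class are given with values and the others by name, and of each related list the 2 highest and 2 lowest ratios in AT2 cells are named. Other settings tried numbered 21, and 3 more were chosen after seeing the data. The values of 1 member are not reported here.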

Additional observations from a re-analysis of the deposited data

How the results depend on the processing

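Of 113 counts of members under the alternatives, 96 were within 1.5 times the reported count. In AT2 cells the 1 member higher labelled IPKO (Agrn) became 0 with TMM factors, with median-of-ratios factors, at 4 times the minimum level and at a 2-fold limit. With no filter 12 members were higher and 2 lower, the added ones all under 5 CPM, and at the lowest fold limit tried 3 were higher (Agrn, Col4a3 and Col4a5) and 1 lower (Itga9). In keratin-high cells the count higher ran from 4 to 9. The 1 lower (Itga7) became 2 with no filter and 0 at 4 times the level, at a 2-fold limit and with the highest 10% of keratin share. In endothelial cells the 13 higher became 6 at 4 times the level, and the 4 lower became 7 with TMM factors and 2 at 4 times the level (without Col4a4 and Lamb3) or a 2-fold limit (without Dag1 and Itga9). Members held at 20 CPM numbered 14, and at 2 CPM 27, with Itga1 and Itga5 added. Of 2035 values of single members, 1859 moved by less than their counting interval, 175 moved by more and 1 reversed: Hspg2 in endothelial over AT2 cells labelled IPKO, at -0.26 when each cell had equal weight. The cause was not tested. No paired analysis was possible because each group had 1 library. Depth limits the endothelial and mesenchymal classes most.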

Other observations

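A further 175 kept cells labelled WT and 293 labelled IPKO belonged to none of the classes. Their median Sftpc share was 5.75% and 6.40%, their median depth 6130 and 5558 UMIs and their median mitochondrial share 14.6% and 13.0%. Levels of held members in them lay near those of AT2 cells for some and apart for others. Itga9 stood at 122 (103 to 145) and 116 (100.4 to 133) CPM. Itgb1, at 149 (127 to 173) and 122 (106 to 140) CPM, and Itgb1bp1, at 19.5 (12.2 to 29.6) and 19.3 (13.3 to 27.2) CPM, lay below AT2 cells in both libraries. Dag1 and Col4a1 lay below labelled IPKO, at 131 (115 to 150) and 147 (129 to 166) CPM, and stood at 172 (149 to 198) and 170 (147 to 196) CPM labelled WT. Lama5 lay above AT2 cells labelled WT, at 39.9 (29.1 to 53.4) CPM, and Hspg2 (32.2, 24.3 to 42.0) and Lamc1 (36.3, 27.9 to 46.6) lay above them labelled IPKO. Sparc stood at 84.3 (68.2 to 103) and 94.4 (80.3 to 110) CPM, below its level in AT2 cells of both libraries. Summed over all 55 members, AT2 cells carried 1455 and 1446 CPM, keratin-high cells 1936 and 1982 CPM, endothelial cells 4335 and 4277 CPM and mesenchymal cells 7815 and 11566 CPM. Immune cells carried 1631 and 1420 CPM, near AT2 cells, since leukocyte integrins are members. The collagen IV and laminin chains alone summed to 491 and 518 CPM in AT2 cells and 31.9 and 25.7 CPM in immune cells.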
